A study of Mus musculus with 4 samples.

Results

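The bone morphogenetic protein (BMP) genes examined here are 10 of the 32285 genes counted in single cells of fetal mouse leg muscle. They comprise 5 ligands (*Bmp2*, *Bmp4*, *Bmp5*, *Bmp6* and *Bmp7*), 3 receptors (*Bmpr1a*, *Bmpr1b* and *Bmpr2*) and 2 extracellular regulators (*Grem1* and *Bmper*), taken by symbol from the gene table of the 4 libraries. All 10 were found in that table. Leg muscles of E18.5 fetuses were dissociated and profiled by droplet sequencing of transcript 3′ ends, with every captured molecule tagged by its droplet's barcode and by a random molecular identifier (UMI) that lets copies be counted once. Wild-type (WT) fetuses gave 2 libraries and fetuses homozygous for a knockout (KO) of *SYISL* gave the other 2. *SYISL* is a long non-coding RNA transcribed from within an intron of *Synpo2*. WT and KO fetuses shared a litter of heterozygous parents, so all of them developed in a mother with a single *SYISL* copy. Muscles were taken from each fetus separately, and how many fetuses made up a library was not stated.

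BMPs are secreted dimers that bind a complex of type I receptors (BMPR1A, BMPR1B and relatives) and the type II receptor BMPR2. The complex phosphorylates SMAD1, SMAD5 and SMAD9, which enter the nucleus with SMAD4 and switch on targets such as the *Id* genes. Gremlin 1 traps ligands outside the cell, and BMPER binds BMPs and can dampen or assist their signalling. In fetal muscle, BMP signalling is known to keep myogenic progenitors proliferating and to hold back their differentiation. It also patterns cartilage, tendon insertions and vessels in the limb.

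The start regions of *Bmp4*, *Bmp6* and *Bmpr1b* are shown because these are the members whose levels changed most along the myogenic stages described below. Each stretch covers 300 bases of the RefSeq promoter table (GRCm38.p6), 250 before and 50 after the annotated start, read on the strand of the gene. Capitals mark CANNTG, the E-box core that basic helix-loop-helix factors such as MYOD1 can bind. It was searched on both strands, which are equivalent for this palindromic pattern.
Bmp4, chr14:46390620-46390919, minus strand: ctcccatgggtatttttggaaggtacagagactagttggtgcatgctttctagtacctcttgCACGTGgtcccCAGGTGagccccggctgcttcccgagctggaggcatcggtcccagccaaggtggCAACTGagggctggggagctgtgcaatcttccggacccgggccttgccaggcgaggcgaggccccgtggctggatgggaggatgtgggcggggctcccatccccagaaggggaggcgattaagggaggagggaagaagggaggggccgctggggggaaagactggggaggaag
Bmp6, chr13:38345466-38345765, plus strand: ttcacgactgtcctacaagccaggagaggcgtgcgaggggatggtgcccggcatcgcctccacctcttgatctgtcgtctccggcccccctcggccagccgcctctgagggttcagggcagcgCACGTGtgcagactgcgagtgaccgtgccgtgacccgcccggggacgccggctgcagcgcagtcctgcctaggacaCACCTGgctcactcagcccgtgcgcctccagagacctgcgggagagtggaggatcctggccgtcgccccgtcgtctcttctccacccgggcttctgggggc
Bmpr1b, chr3:141982215-141982514, minus strand: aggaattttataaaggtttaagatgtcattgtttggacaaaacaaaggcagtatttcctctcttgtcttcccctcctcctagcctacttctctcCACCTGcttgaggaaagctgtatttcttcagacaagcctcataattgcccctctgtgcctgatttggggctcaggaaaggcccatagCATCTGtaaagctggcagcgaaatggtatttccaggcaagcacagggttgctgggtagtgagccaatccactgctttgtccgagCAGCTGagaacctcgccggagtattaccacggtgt
The *Bmp4* stretch held 3 such hexamers, that of *Bmp6* 2 and that of *Bmpr1b* 3. Of the 3 in *Bmpr1b*, 1 read CAGCTG. *Bmpr1b* has other annotated starts, and this is the one with the most matches. Among 32851 promoters of the same length, 72.3% held CANNTG and 16.3% held CAGCTG, so a match is common and describes the letters only. The promoter table covered 8 of the 10 genes, *Bmp2* and *Bmp7* having no entry, and CANNTG was present in 3 of those 8.

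On GRCm38, the ligand genes lie at chr2:133552159-133562885 (*Bmp2*, plus strand), chr14:46383520-46390669 (*Bmp4*, minus), chr9:75775364-75900310 (*Bmp5*, plus), chr13:38345107-38500302 (*Bmp6*, plus) and chr2:172868012-172940321 (*Bmp7*, minus). The receptor genes lie at chr14:34410734-34503341 (*Bmpr1a*, minus), chr3:141837136-142169425 (*Bmpr1b*, minus) and chr1:59763400-59879014 (*Bmpr2*, plus). *Grem1* lies at chr2:113746164-113758646 (minus) and *Bmper* at chr9:23223076-23485200 (plus). In the annotation, *Bmp4*, *Bmp5*, *Bmp6* and *Bmpr1a* overlap measured genes on the opposite strand.

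The 4 libraries held 41741 deposited cells and 109653824 to 126257094 UMIs each, and 36969 cells passed the limits on genes, UMIs and mitochondrial share. The median kept cell had 9118 to 11427 UMIs. *SYISL* is not a named feature of the table, and its host gene *Synpo2* had 9.03 to 10.9 UMIs per 1000000, so the counts give no check of the knockout. KO replicate 2 stood apart from the other 3 libraries in sex-linked transcripts, with *Xist* in 98.2% of its cells against at most 0.0587%, and Y-linked genes in 1.00% against at least 85.8%. Sex and replicate therefore cannot be told apart within the KO pair. Between 21 and 41 cell barcodes were shared by each pair of libraries, at most 0.430% of the smaller library. Capture of chondrocyte-like cells was uneven, with 394 and 704 in WT and 179 and 1019 in KO, and the endothelial-like class of KO replicate 2 held 128 of 133 low-depth cells with transcripts of many cell types.

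Cells were grouped without using the 10 genes or 58 other BMP pathway genes and were named from marker lists. Levels are given as counts per 1000000 (CPM), the UMIs of a gene divided by all UMIs of the cells of that class in that library and scaled to 1000000. The classes were fibro-adipogenic progenitor-like (FAP-like, 16560 cells), myogenic-like (6725), chondrocyte-like (2296), tenocyte-like (2071), smooth muscle or pericyte-like (1752), glial-like (1837), macrophage-like (1114), endothelial-like (1472), mast-like (286) and neutrophil-like cells (215), with a further fibroblast class marked by *Ccl11* (1804). Clusters of 492 and 345 cells stayed unnamed and are not ranked, and a doublet caller marked 78.3% of the latter. Levels are compared between classes within a gene and never between genes, since transcripts of unequal length and intron content are captured unequally. Differences between classes were described by the spread over the 4 libraries and not tested.

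Among the ligands, *Bmp2* was highest in chondrocyte-like cells and *Bmp5* in smooth muscle or pericyte-like cells. On average only, *Bmp6* was highest in chondrocyte-like cells and *Bmp4* in FAP-like cells. *Bmp2*, a ligand of bone and cartilage formation, was at 161, 150, 163 and 148 CPM in chondrocyte-like cells of WT replicates 1 and 2 and KO replicates 1 and 2 (155 ± 7.52, SD, n = 4). Macrophage-like cells followed at 58.3, 55.3, 85.3 and 76.6 CPM. The ranges of these classes did not overlap each other or those of smooth muscle or pericyte-like cells (34.6 ± 2.92), FAP-like cells (33.7 ± 3.68) and tenocyte-like cells (31.3 ± 5.59), which did overlap among themselves. In myogenic-like cells *Bmp2* was at 4.16 ± 0.785 CPM. At a finer clustering resolution of 1, cells with joint or synovial markers separated and were highest, at 219 CPM. Chondrocyte-like cells were then at 126 CPM.

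*Bmp4*, a ligand with broad roles in limb mesenchyme, was at 64.5, 56.4, 61.0 and 57.1 CPM in FAP-like cells (59.7 ± 3.74, n = 4). Tenocyte-like cells, at 51.5 ± 11.7 CPM, overlapped with them. Myogenic-like cells came next at 35.0, 25.5, 38.7 and 25.1 CPM. All other classes ranked below these, down to macrophage-like cells at 3.27 ± 0.723 and mast-like cells at 3.06 ± 2.92 CPM. At the finer resolution of 1, joint or synovial-like cells were highest, at 105 CPM against 59.3 CPM in FAP-like cells.

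*Bmp5*, a ligand known for skeletal patterning, had its highest levels in smooth muscle or pericyte-like, tenocyte-like and chondrocyte-like cells. Smooth muscle or pericyte-like cells were at 172, 165, 151 and 136 CPM (156 ± 16.1, n = 4), above every library of each other class. Tenocyte-like (105 ± 15.9) and chondrocyte-like cells (92.3 ± 5.25) overlapped, and FAP-like cells were lower at 56.8, 37.4, 38.6 and 40.5 CPM. In myogenic-like cells the gene was near absent at 0.438 ± 0.180 CPM, from 31 UMIs in all 4 libraries. Free RNA in droplets can give stray UMIs in any cell, so a value this low is not read as expression.

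*Bmp6*, a ligand known for its part in iron regulation and in vessels, was at 201, 177, 229 and 191 CPM in chondrocyte-like cells (199 ± 21.7, n = 4) and at 162, 183, 177 and 102 CPM in endothelial-like cells (156 ± 37.4). The lowest endothelial-like value belonged to KO replicate 2, and without its low-depth cells it was 111 CPM. The ranges of chondrocyte-like and endothelial-like cells overlapped, and in WT replicate 2 the endothelial-like value was the higher. At a finer clustering resolution of 1, endothelial-like cells were highest on average, at 159 CPM against 154 CPM in chondrocyte-like cells. In the main setting, both classes stood above tenocyte-like cells (74.3 ± 8.01) in every library. Myogenic-like cells were at 50.6, 39.2, 52.5 and 29.5 CPM and FAP-like cells at 16.6 ± 2.96. Myogenic-like cells were thus above FAP-like cells in all 4 libraries for *Bmp6* and below them in all 4 for *Bmp4*.

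*Bmp7* was sparse, with 2700 UMIs in all kept cells. Chondrocyte-like cells (17.0, 19.9, 7.59 and 14.9 CPM) overlapped with FAP-like cells (9.13, 7.52, 11.7 and 8.79 CPM). Smooth muscle or pericyte-like cells had 0.378 ± 0.213 CPM, from 7 UMIs.

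**Figure D1:**
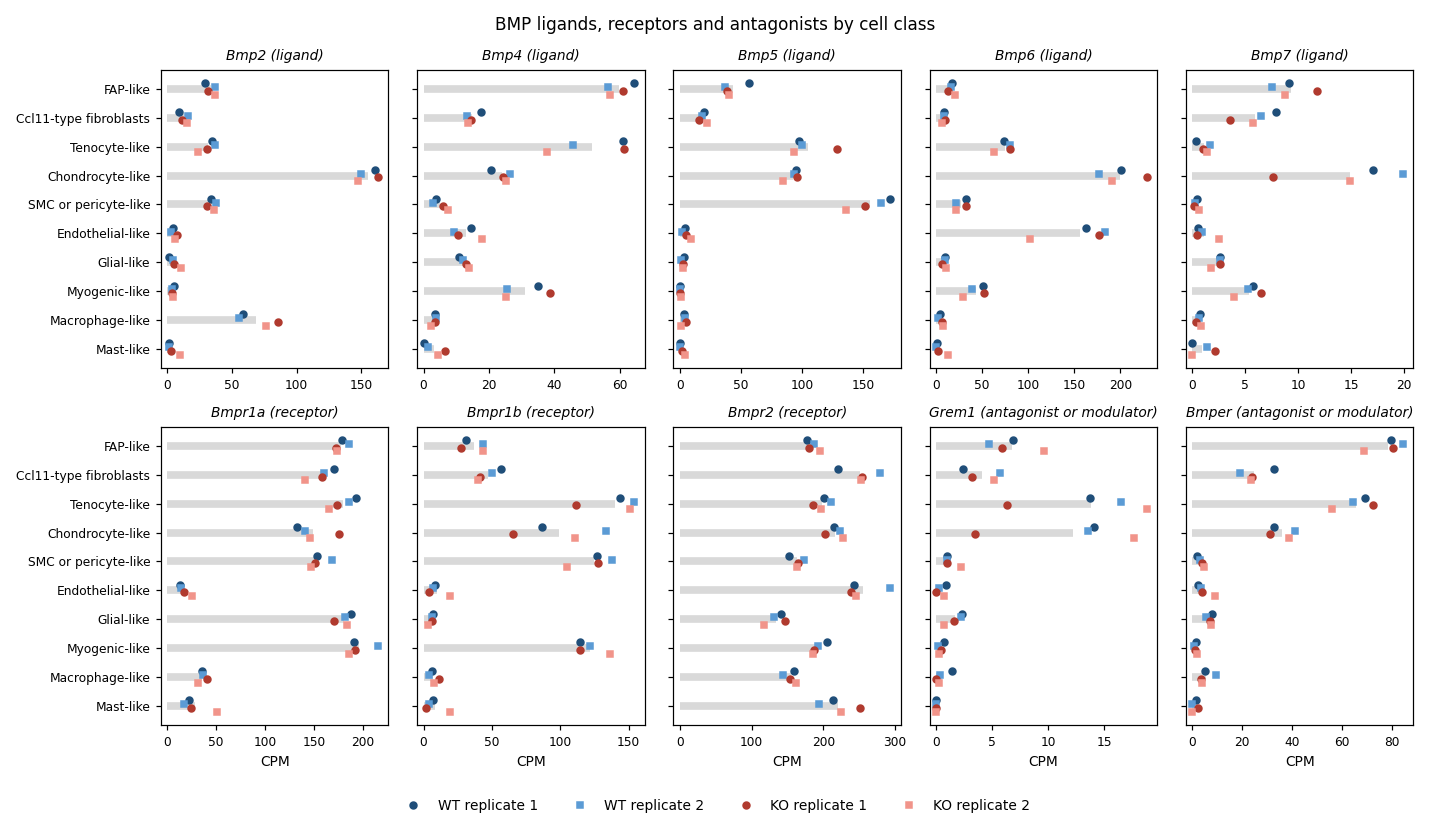
Level of each of the 10 genes in each named cell class other than neutrophil-like cells, in CPM on a horizontal axis of its own per gene. Each point is 1 library, with circles for replicate 1, squares for replicate 2, blue for WT and red for KO. Grey bars give the mean of the 4 libraries. *Bmp5* peaked in smooth muscle or pericyte-like cells (156 CPM) and was near 0 in myogenic-like cells (0.438 CPM). The mean of *Bmpr2* was highest in endothelial-like cells (255 CPM).

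Of the receptors, *Bmpr1a* was low in endothelial-like, mast-like and macrophage-like cells, *Bmpr1b* was on average lowest in glial-like cells, and *Bmpr2* was found in every class. *Bmpr1a*, the widely used type I receptor, was at 191, 216, 192 and 186 CPM in myogenic-like cells (196 ± 13.3, n = 4). Glial-like (181 ± 7.46), tenocyte-like (180 ± 12.3) and FAP-like cells (178 ± 6.01) overlapped with myogenic-like cells and with one another. Endothelial-like cells were lowest at 13.5, 14.0, 16.7 and 25.1 CPM, and every library of theirs was below every library of FAP-like cells. Macrophage-like (35.8 ± 3.65) and mast-like cells (28.3 ± 15.5) were also low, whereas neutrophil-like cells (112 ± 19.3) lay above both without overlap. The neutrophil-like value came from 215 cells, with 25 in each KO library, that held 0.201% of *Bmpr1a* UMIs on average. The part of free RNA in it was not tested.

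*Bmpr1b*, a type I receptor known for its role in cartilage, was at 144, 154, 111 and 151 CPM in tenocyte-like cells (140 ± 19.6, n = 4). It overlapped there with smooth muscle or pericyte-like (124 ± 13.9) and myogenic-like cells (122 ± 10.4). Chondrocyte-like cells varied between libraries, at 86.9, 133, 65.6 and 111 CPM. FAP-like cells had 31.3, 43.6, 27.7 and 43.6 CPM, below all libraries of the classes named before. Glial-like cells, which were among the highest for *Bmpr1a*, were on average the lowest for *Bmpr1b* at 5.70 ± 1.58 CPM.

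*Bmpr2*, the type II partner of both, was highest in endothelial-like cells at 243, 293, 238 and 246 CPM (255 ± 25.7, n = 4). *Ccl11*-type fibroblasts (252 ± 24.0) and mast-like cells (221 ± 23.7) overlapped with them. Myogenic-like (193 ± 8.69) and FAP-like cells (185 ± 7.91) lay in the middle of the order, and neutrophil-like cells were lowest at 94.1 ± 16.7 CPM, from 112 UMIs. Endothelial-like cells, the lowest class for *Bmpr1a*, were also among the lower ones for *Bmpr1b*, at 9.73 ± 6.90 CPM. The endothelial type I receptor *Acvrl1* and the co-receptor *Eng* were highest in these cells, at 102 ± 10.8 and 296 ± 24.7 CPM.

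Of the extracellular regulators, *Bmper* was at 79.6, 84.4, 80.6 and 68.8 CPM in FAP-like cells (78.4 ± 6.68, n = 4) and overlapped with tenocyte-like cells (65.6 ± 7.20). Myogenic-like cells had 1.29 ± 0.529 CPM and smooth muscle or pericyte-like cells 3.57 ± 1.21. *Grem1* was sparse, with 2135 UMIs in kept cells. It was at 13.7, 16.5, 6.36 and 18.8 CPM in tenocyte-like, at 14.1, 13.6, 3.45 and 17.6 CPM in chondrocyte-like and at 6.87, 4.71, 5.90 and 9.59 CPM in FAP-like cells. The first 2 classes were lowest in KO replicate 1, and the ranges of all 3 overlapped. In mast-like cells no *Grem1* UMI was found, which allows at most 4.35 CPM in the shallowest library, a limit of 3 counts that covers counting error only.

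Because FAP-like cells were 44.8% of kept cells, they held a large part of the UMIs of several members even where their level was not the highest. They held 79.6% ± 4.25 of *Bmper* UMIs and 67.0% ± 0.496 of *Bmp4* UMIs (mean and SD over 4 libraries). Their share was 61.4% for *Bmp7*, 58.7% for *Grem1*, 48.8% for *Bmp5* and 48.6% for *Bmp2*. *Bmp6* had no such main source, with 26.2% in chondrocyte-like, 20.0% in myogenic-like, 19.2% in FAP-like and 15.6% in endothelial-like cells. The chondrocyte-like share of *Bmp6* moved with the number of those cells captured, at 22.0%, 32.4%, 9.82% and 40.4% in WT replicates 1 and 2 and KO replicates 1 and 2. *Bmpr1b* was the only receptor with more UMIs in myogenic-like (34.0%) than in FAP-like cells (25.4%).

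**Figure D2:**
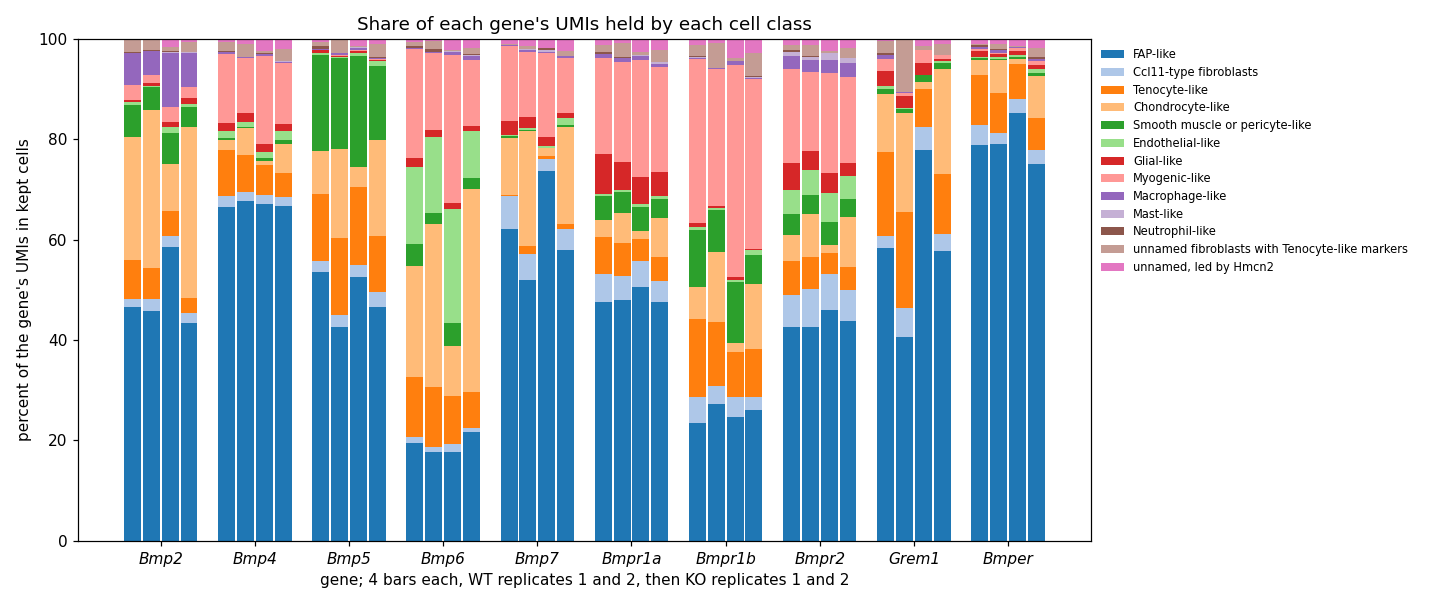
Share of each gene's UMIs held by each cell class, in percent on the vertical axis, with 4 stacked bars per gene for WT replicates 1 and 2 and KO replicates 1 and 2. FAP-like cells filled 79.6% of the *Bmper* bars on average, and the chondrocyte-like part of the *Bmp6* bars ran from 9.82% to 40.4%.

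Within the fibroblasts, ligands and regulators were divided among subtypes, which were again clustered without the 10 genes and named by a leading gene. *Bmp2* was at 77.3, 77.4, 79.7 and 74.2 CPM in fibroblasts led by *Sv2c* (77.2 ± 2.25, n = 4), above every library of each other subtype. The adventitial-type fibroblasts, marked by *Pi16* and *Dpp4*, were at 37.9 ± 2.98 CPM. *Bmp6* was also highest in this subtype without overlap, with 41.4, 33.2, 41.4 and 48.3 CPM in *Sv2c*-led and 20.9 ± 3.52 CPM in adventitial-type fibroblasts.

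*Bmp4* was highest in fibroblasts led by *Dipk1c*, at 85.3, 73.4, 80.3 and 68.7 CPM (76.9 ± 7.34, n = 4), again without overlap. The summed markers of myogenic-like cells were at 399 to 657 CPM in this subtype and at 33.6 to 62.1 CPM in *Sv2c*-led fibroblasts, and their part in the *Bmp4* value was not tested. In the remaining FAP-like subtypes *Bmp4* lay between 45.0 and 59.8 CPM on average, whereas the 2 subtypes of *Ccl11*-type fibroblasts had 26.8 ± 4.71 and 9.50 ± 4.68.

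*Bmper*, which was left out of the clustering like the other members, was at 142, 192, 161 and 144 CPM in fibroblasts led by *Coch* (160 ± 23.0, n = 4), above every library of each other subtype, and at 14.2 ± 5.28 CPM in *Sv2c*-led fibroblasts. *Bmp5* ran in a like order, with 106, 76.3, 73.3 and 61.7 CPM in *Coch*-led fibroblasts and 7.99 ± 1.01 CPM in adventitial-type fibroblasts. Its values in *Coch*-led and *Dipk1c*-led fibroblasts (56.2 ± 17.0) overlapped. The *Sv2c*-led and adventitial-type subtypes, the highest in *Bmp2* among FAP-like cells, were thus on average the lowest in *Bmp5* and *Bmper*.

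*Bmp7* was found mainly in adventitial-type fibroblasts (25.4, 20.1, 24.9 and 25.9 CPM) and overlapped there with *Ccl11*-type fibroblasts led by *Tenm2* (18.0 ± 5.34), which also carried perineurial markers. The other *Ccl11*-type subtype, led by *Olfr1033*, had 0.624 ± 0.317 CPM. *Grem1* was at 13.4, 9.65, 21.9 and 22.6 CPM in *Sv2c*-led and 20.4, 8.12, 12.8 and 12.6 CPM in adventitial-type fibroblasts, with overlapping ranges. *Bmpr1b* was at 85.7, 113, 39.5 and 105 CPM in *Sv2c*-led fibroblasts, where KO replicate 1 was low, against 21.9 to 30.6 CPM on average in cycling, *Dipk1c*-led, *Coch*-led and *Synpr*-led fibroblasts. *Bmpr1a* varied little, from 155 ± 11.6 to 206 ± 4.83 CPM over all subtypes, and *Bmpr2* from 158 ± 8.15 to 268 ± 33.1.

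Along the myogenic stages, 2 ligands were lower and 1 receptor was higher in differentiated cells. *Bmp4* was at 51.9, 38.8, 51.6 and 42.4 CPM in progenitor-like cells (46.2 ± 6.61, n = 4), at 16.2 ± 3.61 in myoblast-like cells and at 1.14 ± 0.410 in myotube-like cells. *Bmp6* was at 74.0, 59.2, 69.9 and 46.4 CPM (62.4 ± 12.4) in progenitor-like, 13.8 ± 8.92 in myoblast-like and 2.06 ± 1.06 in myotube-like cells. For both genes, progenitor-like and cycling progenitor-like cells overlapped, and both stood above all libraries of the 3 later stages.

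*Bmpr1b* ran the other way, with 211, 234, 219 and 267 CPM in myotube-like cells (233 ± 24.4, n = 4), 151 ± 12.3 in myoblast-like and 108 ± 12.4 in progenitor-like cells. These 3 stages did not overlap. The ratio of myotube-like to progenitor-like cells was 2.16 ± 0.185, between 1.91 and 2.35 in single libraries. Cycling progenitor-like cells (68.8 ± 10.5) lay below all 3 without overlap, while cycling myoblast-like cells, at 70.4, 94.1, 77.5 and 111 CPM, overlapped with progenitor-like and cycling progenitor-like cells. *Bmpr1a* and *Bmpr2* had no such gradient, the same ratio being 0.942 ± 0.0347 and 0.942 ± 0.0529.

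Of the 13 listed BMP targets, *Id3* and *Id1* were chosen for their high CPM in 4 main classes. That order only served to pick genes to name, since capture differs between genes. *Id3* and *Id1* encode inhibitors of basic helix-loop-helix factors, and both were lower in myotube-like than in progenitor-like cells. Any relation to the levels of *Bmp4* and *Bmp6* was not tested. *Atoh8*, another listed target, was lower in progenitor-like cells (5.61 ± 0.719 CPM) than over all myogenic-like cells (8.79 ± 0.872). The other listed targets are not described by stage, so these genes do not stand for the list. *Id3* was at 1101 ± 77.2 CPM in progenitor-like and 138 ± 38.6 in myotube-like cells, a ratio of 0.127 ± 0.0400, and *Id1* at 475 ± 31.0 and 250 ± 23.6, a ratio of 0.526 ± 0.0227. The antagonist gene *Nog* (noggin) was at 30.6 ± 3.55 CPM in progenitor-like and 4.10 ± 2.83 in myotube-like cells. *Bmp2*, *Bmp5*, *Bmp7*, *Grem1* and *Bmper* were at or below 7.13 CPM on average in every stage. No UMI of *Bmp5* or *Grem1* was found in myotube-like cells, which allows at most 1.20 CPM in the shallowest library.

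**Figure D3:**
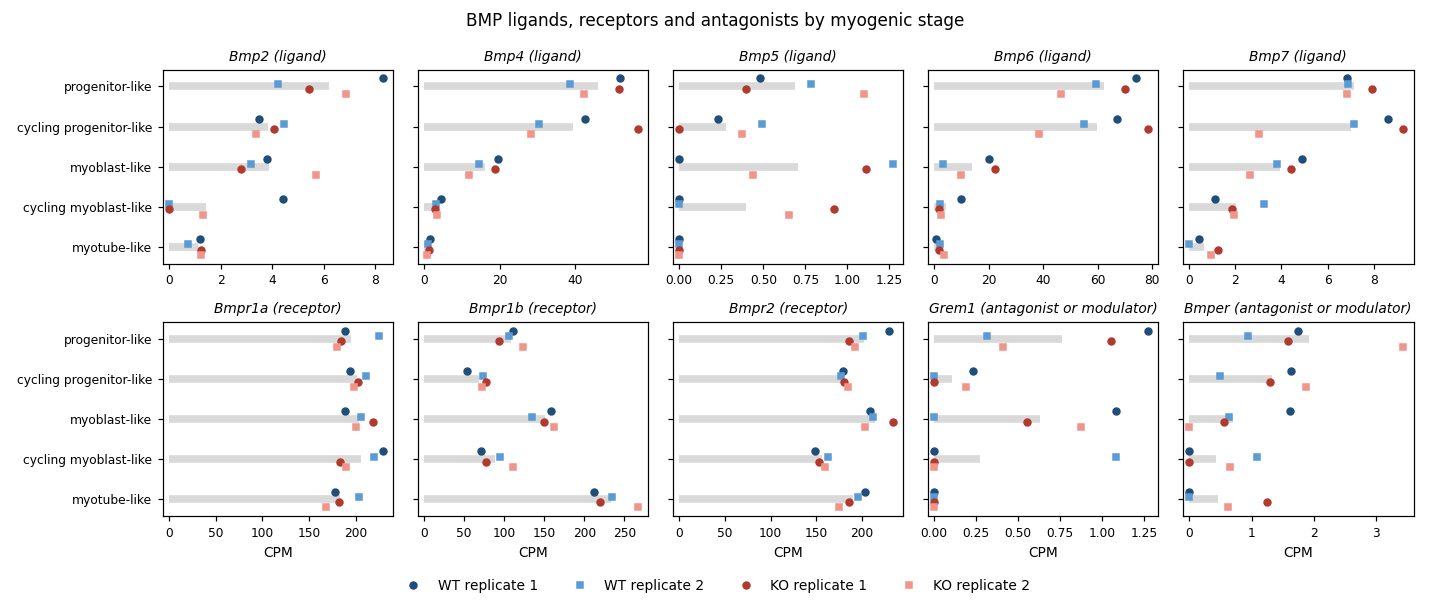
Level of each of the 10 genes in the 5 myogenic stages, in CPM on a horizontal axis of its own per gene; each point is 1 library, circles for replicate 1 and squares for replicate 2, blue for WT and red for KO, and grey bars give the mean of the 4 libraries. *Bmp4* went from 46.2 CPM in progenitor-like to 1.14 CPM in myotube-like cells and *Bmpr1b* from 108 to 233 CPM, while *Bmpr1a* and *Bmpr2* stayed level.

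The genes with the most similar pattern over the 11 named classes were listed among 12459 genes by Pearson's r of mean log2(CPM + 1). The r values are descriptions over 11 points that share the same 4 libraries. *Bmp6* was close to *Cd109* (0.890) and to its family's target *Id1* (0.889), *Bmp4* to *Disp1* (0.960), which encodes a protein that releases Hedgehog ligands, and *Bmp5* to *Vasn* (0.951), with the TGFβ family gene *Inhba* at rank 3 (0.932). *Bmp7* was most like *Itm2a* (0.949), *Bmpr1a* like *Irs1* and *Tead3* (both 0.962), *Bmpr1b* like *Tenm4* (0.929) and *Bmpr2* like *Cblb* (0.884). *Bmper* was most like *Egfl6* (0.954), *Grem1* like *Stx5a* (0.968) and *Bmp2* like *Adnp2* (0.893). No member was among the 3 nearest genes of any other.

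Comparison of KO with WT asked whether loss of *SYISL* changed any of these genes in any cell type. No member passed the threshold, an adjusted p under 0.05 over all genes tested in a class (edgeR quasi-likelihood test on UMIs summed per library), in any of the 10 classes, 8 subtypes or 5 stages tested. The lowest adjusted p was 0.639. DESeq2 called 0 members as well. Few genes of any kind were called, 0% in 7 of the classes, 0.0250% in endothelial-like, 0.0982% in mast-like and 0.151% in smooth muscle or pericyte-like cells. In the subtypes it was 0.0859% in *Tenm2*-led and 0.0210% in *Coch*-led fibroblasts, in the stages 0.0125% in cycling myoblast-like cells, and 0% in all others.

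In FAP-like cells, where most members had the most UMIs, the log2 fold changes of KO over WT ran from −0.22 for *Bmp5* (SE 0.19) to 0.46 for *Grem1* (SE 0.27), and that of *Grem1* was 0.063 to 0.76 when 1 library was left out. *Bmp4* differed by −0.00039 (SE 0.09) and *Bmpr1a* by −0.04 (SE 0.06). In myogenic-like cells they ran from −0.10 for *Bmp6* (SE 0.23) to 0.74 for *Bmper* (SE 0.43), the latter resting on 93 UMIs in all and being 0.30 to 1.37 when 1 library was left out. *Bmpr1b*, the receptor that was higher in myotube-like cells, differed by 0.13 (SE 0.10) and *Bmp4* by 0.11 (SE 0.20). A test of whether the KO effect differed between FAP-like and myogenic-like cells (an edgeR interaction, blocked by library) called 0% of 17752 genes and 0 members. At an unadjusted p under 0.05, 619 genes and 0 members passed it.

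At an unadjusted p under 0.05, 11 of 84 member tests in classes passed against 4.21% of all gene tests, and 14 of 78 in subtypes against 3.82%. In the stages 0 of 26 passed against 4.13%. The tests of a gene in neighbouring classes and of classes within a library are not independent, so these shares are given as descriptions. The smallest p in the classes belonged to *Bmp2* in macrophage-like cells, where both KO libraries (85.3 and 76.6 CPM) were above both WT libraries (58.3 and 55.3 CPM). The log2 difference was 0.54 (SE 0.12, adjusted p 0.997 by edgeR). *Bmp4* in smooth muscle or pericyte-like cells was at 3.67 and 2.82 CPM in WT and 5.87 and 7.33 CPM in KO, a log2 fold change of 1.02 (SE 0.34). FAP-like markers, from cells rich in *Bmp4*, were summed to 3607 and 3180 CPM in WT and 5144 and 4468 CPM in KO in that class. Of these markers, 11 of 12 were higher in both KO libraries, but the share of all genes so separated was not counted. The part of these markers in the result was not tested.

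In endothelial-like cells *Bmp2* (0.93, SE 0.38), *Bmpr1a* (0.61, SE 0.24) and *Bmper* (1.14, SE 0.50) were higher in KO on the log2 scale without passing the adjusted threshold. FAP-like markers summed to 1912 and 1250 CPM in WT and 2459 and 3768 CPM in KO. Without the 133 low-depth cells the values were 0.74 (SE 0.41), 0.28 (SE 0.20) and 0.75 (SE 0.44). *Bmp5*, at 36.7 CPM in those cells and 4.36 CPM in the other endothelial-like cells, had a log2 fold change of 1.02 (SE 0.48) with them and 0.62 (SE 0.43) without them. With the loose cell filter *Bmper* turned to −0.24. Without KO replicate 1, *Bmpr1a* (0.88, adjusted p 0.0172) and *Bmper* (1.63, adjusted p 0.0404) were called in this class by edgeR. That fit leaves KO replicate 2 with its low-depth cells as the lone KO library, and these were the lowest adjusted p of all alternatives, the highest being 1.00 for both genes.

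In *Sv2c*-led fibroblasts *Grem1* and *Bmper* were at 13.4 and 9.65 and at 9.86 and 9.65 CPM in WT, and at 21.9 and 22.6 and at 17.0 and 20.2 CPM in KO. The log2 fold changes were 0.99 (SE 0.22) and 0.97 (SE 0.21), with adjusted p of 1.00 by edgeR in a table of 13207 genes. When genes with a single UMI were admitted, the adjusted p were 0.00611 and 0.0190 by edgeR, the lowest of all alternatives, which reached up to 1.00. *Bmp5* was lower in KO in *Coch*-led (−0.41, SE 0.15) and *Synpr*-led fibroblasts (−0.62, SE 0.19), and these differences did not pass either. Without WT replicate 2 the *Coch*-led difference was −0.63 (adjusted p 0.000335 by edgeR) and without KO replicate 1 it was −0.53 (adjusted p 0.0361), while leaving out WT replicate 1 gave −0.14 and leaving out KO replicate 2 gave −0.29, and other alternatives gave an adjusted p of up to 1.00. The *Synpr*-led difference ran from −0.91 to −0.29 when 1 library was left out, the smaller value being without WT replicate 1.

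**Figure D4:**
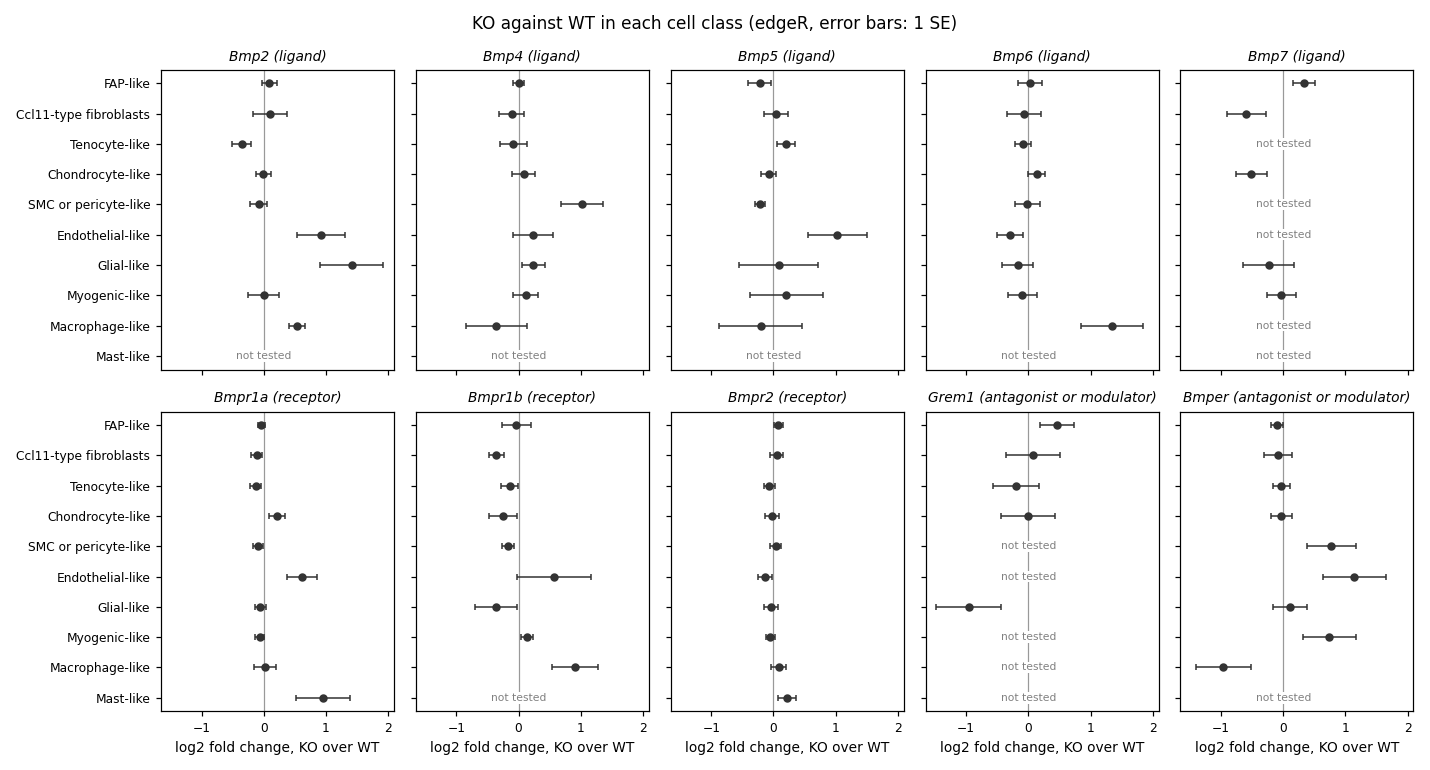
Log2 fold change of KO over WT for each of the 10 genes in each tested cell class, with bars of 1 standard error from edgeR. All panels share the same horizontal scale, and a vertical line marks 0. No difference passed the adjusted threshold, and the bars are short for *Bmpr1a* and *Bmpr2* in FAP-like cells (SE 0.06 and 0.07) and long where UMIs were few.

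The other BMP pathway genes were taken from a list of 58 in 5 functional groups. In 396 tests over the classes 1 call was made, *Fstl1* in mast-like cells, and 27 tests (6.82%) had an unadjusted p under 0.05 against 4.21% of all gene tests. *Fstl1*, which encodes a follistatin-like secreted protein, was at 29.0, 29.1, 121 and 117 CPM (log2 fold change 2.02, SE 0.21, adjusted p 0.0360 by edgeR). In FAP-like cells it was at 1684 ± 103 CPM. FAP-like markers in mast-like cells summed to 964 and 672 CPM in WT and 2532 and 2475 CPM in KO. All 12 of 12 were higher in both KO libraries, but the share of all genes so separated was not counted. The part of these markers in the call was not tested. The call was lost without cells marked as doublets (1.47, adjusted p 0.368) and with the loose cell filter (0.91, adjusted p 0.903 by edgeR). It was also lost without KO replicate 1 and without KO replicate 2 (adjusted p 0.0824 and 0.196), although the log2 fold change was 1.98 to 2.06 whichever library was left out. Over all alternatives its adjusted p ran from 4.54e-06 to 0.903 by edgeR.

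In FAP-like cells the pathway genes with the smallest unadjusted p were *Sostdc1* (−0.50, SE 0.17), *Id3* (0.16, SE 0.08), *Bambi* (0.16, SE 0.08) and *Smad1* (0.19, SE 0.10). In myogenic-like cells they were *Fst* (1.11, SE 0.34), *Id1* (0.20, SE 0.07), *Tgfbr3* (−0.23, SE 0.10) and *Chrdl2* (0.29, SE 0.16). None of these passed the adjusted threshold. Leaving out 1 library moved several of them by over 1.5 times, *Sostdc1* from −0.79 to −0.26, *Id3* from 0.068 to 0.25, *Bambi* from 0.097 to 0.22 and *Smad1* from 0.058 to 0.32. In myogenic-like cells *Id1* ran from 0.12 to 0.29, *Tgfbr3* from −0.37 to −0.099, *Chrdl2* from 0.14 to 0.42 and *Fst* from 0.83 to 1.39. *Fst* was near absent in progenitor-like cells, at 0.973 ± 0.250 CPM from 27 UMIs, against 153 ± 22.4 CPM in FAP-like cells. Free RNA in droplets can give stray UMIs, and its part in the *Fst* value was not tested. Over the 337 pathway tests in subtypes and 146 in stages 0 genes were called by edgeR, with 23 (6.82%) and 10 (6.85%) at an unadjusted p under 0.05 against 3.82% and 4.13% of all gene tests.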

How the data were processed

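Cells of fetal leg muscle were profiled in 4 libraries, 2 WT and 2 *SYISL* KO (Chromium 3′ v3). The authors' deposited files hold raw UMI counts for each gene in each called cell. The submitters' processing notes name Cell Ranger 7.2.0 and mm10. Whether intronic reads were counted is not given in the sources used here, so counts can hold unspliced transcripts. Following the study's methods, cells outside 1000 to 6000 genes or 1000 to 25000 UMIs, or with a mitochondrial share of 8% or more, were dropped. Library depth is given in the report, and the floor of 3 counts covers counting error only.

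Counts were scaled to 10000 UMIs per cell, log-transformed and clustered with scanpy 1.11.5 (3000 variable genes without the BMP genes, 30 components, 20 neighbours, Leiden resolution 0.3; 0.5 for fibroblasts and 0.6 for myogenic-like cells). The study corrected batches with Harmony, which was not used. Clusters were named from marker lists, so names are rebuilt. Doublets called by Scrublet were removed only in an alternative. The naming rule, the sub-cluster resolutions and the removal of low-depth cells were chosen after seeing the data, and the members and gene lists were chosen with earlier results of these data known.

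UMIs were summed per library and class, or per subtype or stage, where each library had at least 50 cells. They were tested with edgeR 4.0.16 in R 4.3.3 (quasi-likelihood, TMM, filterByExpr) and called at 0.05 after Benjamini-Hochberg adjustment across every gene in the fit. SE came from the F statistic. Alternatives were RLE factors, DESeq2 1.42.0, other gene and cell filters, resolution 1, library-centred clustering, a replicate block and each library left out in turn. The scripts were tested on simulated data. The study's methods place WT and KO fetuses in a shared litter and describe isolation fetus by fetus, but do not say which fetuses made up each library, so p-values measure the spread between these libraries. Values of all 10 members were described. Other genes of the pathway list were named if called in a class, if among the 4 smallest p in FAP-like or myogenic-like cells, or if among the 3 highest of their functional group in 4 main classes. Genes of like pattern were the 3 with the highest r among those reaching 10 CPM in a class. *Nog* and *Atoh8* in the stages, and genes of the list named in the closing section outside these rules, were chosen after their values were seen.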

Additional observations from a re-analysis of the deposited data

Results flagged for a closer look

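Several members had both KO libraries above both WT libraries in some cell classes and below both in others. Whether these effects differed between the classes was not tested. With 2 libraries a group, such separation often comes from the order of libraries alone. Its share over all genes was not counted, so these cases are descriptions and not results about the members. Values are log2 fold changes of KO over WT, none of which passed the adjusted threshold. *Bmp2* was higher in KO in glial-like (1.42), endothelial-like (0.93) and macrophage-like cells (0.54) and lower in tenocyte-like cells (−0.35). Leaving out 1 library moved the glial-like value from 0.78 to 2.24 and the tenocyte-like value from −0.54 to −0.16. *Bmp4* was higher in smooth muscle or pericyte-like (1.02) and glial-like cells (0.24) and lower in macrophage-like cells (−0.36). Of the 15924 *Bmp4* UMIs, smooth muscle or pericyte-like cells held 0.570% on average and macrophage-like cells 0.259%, so these 2 values rest on few counts. *Bmp5* was higher in endothelial-like cells (1.02) and lower in smooth muscle or pericyte-like cells (−0.22), the class with its highest level. The endothelial-like value was 0.62 without the 133 low-depth cells.

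*Bmpr1a* was higher in KO in mast-like (0.96), endothelial-like (0.61) and chondrocyte-like cells (0.21), the endothelial-like value being 0.28 without the low-depth cells. It was lower in tenocyte-like (−0.13), *Ccl11*-type (−0.12), smooth muscle or pericyte-like (−0.093) and FAP-like cells (−0.038). *Bmpr1b* was higher in macrophage-like cells (0.91) and lower in *Ccl11*-type fibroblasts (−0.36). *Bmpr2* was higher in mast-like cells (0.22) and lower in tenocyte-like (−0.067) and myogenic-like cells (−0.051). *Bmper* was higher in endothelial-like (1.14, or 0.75 without those cells and −0.24 with the loose cell filter) and smooth muscle or pericyte-like cells (0.77) and lower in macrophage-like cells (−0.96). FAP-like markers were also higher in both KO libraries for 10 of 12 in endothelial-like, 11 of 12 in smooth muscle or pericyte-like and 12 of 12 in mast-like cells. The share of all genes so separated was not counted, and the part of these markers in the values of these classes was not tested. Macrophage-like cells held on average 0.382% of the 25676 *Bmpr1b* UMIs and 0.388% of the 17577 *Bmper* UMIs. Counts this low can hold stray UMIs from free RNA, whose part was not tested.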

How the results depend on the processing

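The number of genes called in the classes (29) became 401 without a gene filter, 67 with DESeq2, 15 without Scrublet doublets, 51 with library-centred clustering, 6 with the loose cell filter, 424 with the replicate block and 209 to 733 without 1 library. In subtypes (12) it became 368, 21 with DESeq2, 427 with the replicate block and 80 to 343 without 1 library. In stages (1) these were 29, 0, 162 and 40 to 519, and in the interaction (0) 8 without a filter, 2 with DESeq2 and 6 to 19 without 1 library. Members called in classes (0) became 1 without a filter (*Bmp2* in glial-like cells) and 0 to 4 without 1 library, the 4 being *Bmp6*, *Bmpr1a*, *Bmpr1b* and *Bmper* in endothelial-like cells without KO replicate 1. In subtypes they became 4 without a filter, 3 with the replicate block (*Bmp2* and *Bmp5* in *Coch*-led fibroblasts, adjusted p 0.0348 and 0.00198, and *Bmp5* in *Synpr*-led fibroblasts, 0.0129, by edgeR) and 0 to 4 without 1 library. In stages they became 0 to 1 without 1 library, *Bmp6* in cycling progenitor-like cells without KO replicate 1 and *Bmp4* there without KO replicate 2. A fit without 1 library has a lone sample in an arm, which is assumed to vary like the others, and the cause of these shifts was not tested.

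Replicate numbers are shared by WT and KO, but the labels and methods do not pair them, so they were not taken as pairs. Same-numbered libraries deviated together weakly (r from −0.0126 to 0.161 over classes, 0.0410 to 0.134 over subtypes and −0.0060 to 0.198 over stages). Such an r cannot exclude pairing, because the KO libraries also differed from each other in sex-linked transcripts. The *Fstl1* call in mast-like cells was lost with the replicate block (adjusted p 0.0711 by edgeR), without a gene filter (0.802) and with the loose cell filter (0.903). Chondrocyte-like *Bmp2* moved from 155 to 126 CPM at resolution 1, and *Bmp6* from 199 to 154 CPM there and to 224 CPM with the loose filter. At resolution 1 joint or synovial-like cells separated and the chondrocyte-like class held 2835 cells, and the part of either change was not tested. Counts limit *Grem1* and *Bmp7*, and ligands in classes where they are near 0. The KO pair mixes sexes, and with 2 libraries a group small differences could not be told from the spread.

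Of 672 recomputed values of 63 log2 fold changes, 50 had the opposite sign to the value reported, and in each of these the reported or the recomputed value was smaller than its own SE. *Bmp6* in macrophage-like cells (1.34) became −0.14 with library-centred clustering and −0.17 with the loose filter, and *Bmper* in endothelial-like cells became −0.24 with the loose filter. *Bmp4* in FAP-like cells became 0.0014 without a gene filter, 0.0027 with the replicate block, 0.0017 at resolution 1 and 0.021 with the loose filter. *Bmp6* there became −0.0015 with the replicate block and −0.0067 with the loose filter, and *Bmpr1b* 0.010 at resolution 1. *Bmp2* in myogenic-like cells became −0.00062 with RLE factors, −0.00081 with DESeq2, −0.024 without Scrublet doublets, −0.00074 at resolution 1, −0.094 with library-centred clustering and −0.093 with the loose filter. Without 1 library, values in FAP-like cells ran from −0.055 to 0.24 for *Bmp2*, −0.10 to 0.10 for *Bmp4*, −0.50 to 0.12 for *Bmp5*, −0.33 to 0.31 for *Bmp6*, −0.40 to 0.26 for *Bmpr1b* and −0.22 to 0.0090 for *Bmper*. In myogenic-like cells they ran from −0.28 to 0.36 for *Bmp2*, −0.21 to 0.38 for *Bmp4*, −0.25 to 0.89 for *Bmp5*, −0.55 to 0.25 for *Bmp6*, −0.41 to 0.27 for *Bmp7*, −0.14 to 0.021 for *Bmpr1a*, −0.019 to 0.27 for *Bmpr1b* and −0.10 to 0.0038 for *Bmpr2*. Their difference between these classes ran from −0.40 to 0.54 for *Bmp2*, −0.34 to 0.17 for *Bmp4*, −1.39 to 0.38 for *Bmp5*, −0.58 to 0.86 for *Bmp6*, −0.030 to 0.085 for *Bmpr1a*, −0.37 to 0.027 for *Bmpr1b* and −0.30 to 1.25 for *Grem1*. The cause of these sign changes was not tested.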

Other observations

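At the finer resolution of 1, 425 joint or synovial-like cells separated, named from markers such as *Prg4*, which encodes lubricin. They had the highest *Bmp2* level of any class, at 229, 231, 211 and 206 CPM (219 ± 12.7, SD, n = 4), and the highest *Bmp4* level, at 105 ± 14.4 CPM. *Bmp6* was at 139 ± 21.5 CPM there, below endothelial-like cells at 159 ± 33.8, with overlapping ranges. *Bmp7* was then highest on average in 476 perineurial-like cells at 18.0 ± 5.83 CPM. Chondrocyte-like cells numbered 2835 at this resolution and 2296 in the main setting. Which main classes held the joint or synovial-like and perineurial-like cells was not counted, so the class levels given in the report may include them.

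Outside the 10 members, glial-like cells held the highest level of the antagonist gene *Sostdc1* (918 ± 155 CPM, n = 4), against 33.8 CPM or less in every other named class, and of the co-receptor gene *Tgfbr3* (631 ± 78.9). *Htra1*, which encodes a secreted protease, was highest in tenocyte-like cells (437 ± 39.9) and *Crim1* in endothelial-like cells (330 ± 40.2). Among ligands, *Gdf10* was at 89.8 ± 29.8 CPM in *Ccl11*-type fibroblasts and 86.6 ± 11.8 in chondrocyte-like cells, *Bmp3* at 36.6 ± 5.65 in *Ccl11*-type fibroblasts and *Gdf11* at 16.2 ± 0.882 in smooth muscle or pericyte-like cells. *Gdf5*, a joint ligand, was at 17.1 ± 3.10 in chondrocyte-like cells.

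The pathway mediators *Smad1* (166 ± 13.4 CPM) and the targets *Id1* (590 ± 49.7) and *Id3* (850 ± 67.3) were highest in endothelial-like cells, where *Bmpr1a* and *Bmpr1b* were low. The inhibitory mediator gene *Smad7* was highest in mast-like cells (377 ± 23.9), followed by endothelial-like cells (301 ± 17.5). *Smurf2*, which encodes a ubiquitin ligase of SMADs, was within 130 to 151 CPM in FAP-like, myogenic-like, tenocyte-like and chondrocyte-like cells. *Fst*, the follistatin gene, was at 153 ± 22.4 CPM in FAP-like and 1.67 CPM in myogenic-like cells, and *Nog* at 1.51 and 20.7 CPM. These differences between classes were not tested.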
